A study of Rattus norvegicus with 24 samples.

Results

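The mitochondrial respiratory chain genes examined here are the nuclear genes whose platform symbol starts with Nduf, Uqcr or Atp5, with Cox followed by a digit from 4 to 8, or is Sdha, Sdhb, Sdhc, Sdhd, Cyc1 or Cycs. A gene entered when a probe set carried that single symbol, and where a gene had several, the one with the highest average of log2(signal + 16) across all 24 arrays stood for it. The rule found 87 genes of the 14217 with a single symbol on the array: 34 subunits of complex I and 6 of its assembly factors, 4 subunits of complex II, 8 of complex III, 16 of complex IV and 15 of complex V. The other 4 were Ndufa4l2, Cox7a2l, Atp5if1 and the pseudogene Cox6c-ps1. Of the 87, 85 lay above the median signal of the array in at least 4 arrays and were tested. Cox6c-ps1 and Cox7b2 did not pass this filter, with signals of 17.3 to 236 and of 4.9 to 209.5; they lay above the median in 3 arrays and in 1. Cox8b (4 arrays), Cox6b2 (6 arrays) and Ndufb8 (8 arrays) came closest to the limit among those that passed.

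RNA came from cartilage of the proximal tibia of uncastrated rats 1 week old, cut by hand into zones from 60 µm frozen sections and measured on Affymetrix arrays. Animals 1 to 5 each gave an array of the resting zone, the proliferative zone, the proliferative-hypertrophic transition zone and the hypertrophic zone (n = 5), and animals 1, 2, 4 and 5 one of epiphyseal cartilage (n = 4). Male sex is stated for resting, proliferative and hypertrophic samples only; epiphyseal and transition samples are described as untreated and fed standard chow. No strain or genotype is given, and each array holds 1 animal. With animal as a block, the p-values below weigh zone differences against the spread left after zone and animal, pooled over all zones. With 1 array per animal and zone, variation between animals and that from cutting, labelling and array cannot be told apart in it. Among the arrays, the median signal of all probe sets lay between 135.3 and 244.6, and precision is limited by how many arrays each zone has. Chondrocyte markers (4 genes on the array) summed to between 116200 and 334700 in every array. Markers of dividing cells (7 genes) summed to 9779 to 16810 in the proliferative zone against 2537 to 4404 in the transition zone and 4437 to 10760 in the hypertrophic zone. Hypertrophic arrays of animals 4 and 5 (10500 and 10760) exceeded the proliferative array of animal 4 (9779). Markers of hypertrophic chondrocytes (7 genes) summed to 8832 to 16260 in the proliferative zone and to 102200 to 216300 in the hypertrophic zone.

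The respiratory chain sits in the inner membrane of the mitochondrion. Complex I takes electrons from NADH and complex II from succinate; ubiquinone carries them to complex III, cytochrome c on to complex IV, and complex IV reduces oxygen. Complexes I, III and IV pump protons, and complex V, the ATP synthase, uses the gradient to make ATP. Most subunits are coded in the nucleus, and the genes of several complex IV subunits come in pairs of a common form and a form of muscle, testis or lung. Growth plate cartilage has no blood vessels, its chondrocytes live at low oxygen, and they draw much of their ATP from glycolysis.

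Promoters of 78 members were found in RefSeq's sequences of assembly GRCr8, taken from 250 bases before to 50 bases after the first listed start of each gene. They were searched on both strands for a motif of each of 4 factors known to bind such promoters: GCGCANGCG (nuclear respiratory factor 1), CCGGAAGT (ETS factors, which include nuclear respiratory factor 2), AAGATGGCG (YY1) and TCAAGGTCA (oestrogen-related receptors). The first was in 19 of 78 members (24.4%) and in 6.26% of 27457 promoters of the same length over all genes. The ETS motif was in 8 (10.3%, against 4.01% of all), the YY1 motif in 11 (14.1%, against 1.93%) and the receptor motif in 2 (2.56%, against 0.412%). By complex, the nuclear respiratory factor 1 motif was in 8 of 32 promoters of complex I, in 6 of 14 of complex V and in 0 of 13 of complex IV, where 2 held the ETS motif. A match is only a match of letters. The promoters printed here belong to genes that differed between zones. Ndufs6 was lower in the hypertrophic than the transition zone, and Ndufa6 lower in the hypertrophic than the proliferative zone. Uqcrq was higher in the proliferative than the resting zone, and Atp5mc3 and Cox5b were higher in the transition than the proliferative zone. Ndufa4l2 was lower in the hypertrophic than in the proliferative and transition zones. Each is written 5′ to 3′ on the gene's strand, with motif matches in capitals.
Ndufs6, chr1:31797150-31797449, plus strand: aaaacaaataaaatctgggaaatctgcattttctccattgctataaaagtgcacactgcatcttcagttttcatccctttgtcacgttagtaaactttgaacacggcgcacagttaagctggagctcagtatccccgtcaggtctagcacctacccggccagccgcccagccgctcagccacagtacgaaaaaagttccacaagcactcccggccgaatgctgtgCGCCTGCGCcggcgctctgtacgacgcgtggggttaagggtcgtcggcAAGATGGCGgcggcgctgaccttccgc
Ndufa6, chr7:115750268-115750567, minus strand: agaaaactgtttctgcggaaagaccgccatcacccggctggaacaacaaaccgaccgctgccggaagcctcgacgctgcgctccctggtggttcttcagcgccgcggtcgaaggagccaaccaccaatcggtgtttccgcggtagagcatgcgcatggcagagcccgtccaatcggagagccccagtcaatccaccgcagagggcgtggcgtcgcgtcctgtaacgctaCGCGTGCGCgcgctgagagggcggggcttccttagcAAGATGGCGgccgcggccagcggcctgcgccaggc
Atp5mc3, chr3:79220615-79220914, minus strand: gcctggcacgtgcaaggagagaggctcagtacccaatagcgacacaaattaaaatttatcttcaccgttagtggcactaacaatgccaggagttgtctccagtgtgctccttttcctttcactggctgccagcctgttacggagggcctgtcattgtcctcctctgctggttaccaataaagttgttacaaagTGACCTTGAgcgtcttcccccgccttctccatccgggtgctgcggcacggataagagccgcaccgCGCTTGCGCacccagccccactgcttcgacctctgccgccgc
Uqcrq, chr10:38089929-38090228, minus strand: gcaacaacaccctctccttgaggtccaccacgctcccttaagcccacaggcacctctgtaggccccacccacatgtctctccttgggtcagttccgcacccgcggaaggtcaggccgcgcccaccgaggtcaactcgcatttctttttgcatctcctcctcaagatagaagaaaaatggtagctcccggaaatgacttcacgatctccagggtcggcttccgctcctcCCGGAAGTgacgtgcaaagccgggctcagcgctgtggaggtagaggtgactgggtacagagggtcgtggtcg
Cox5b, chr9:46417587-46417886, plus strand: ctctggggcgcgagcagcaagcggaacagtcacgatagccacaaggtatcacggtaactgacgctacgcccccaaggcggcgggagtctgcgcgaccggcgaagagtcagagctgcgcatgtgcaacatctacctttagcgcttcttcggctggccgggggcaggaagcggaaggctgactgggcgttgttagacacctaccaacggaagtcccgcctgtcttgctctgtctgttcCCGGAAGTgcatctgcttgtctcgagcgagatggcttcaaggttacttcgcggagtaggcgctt
Ndufa4l2, chr7:65241919-65242218, plus strand: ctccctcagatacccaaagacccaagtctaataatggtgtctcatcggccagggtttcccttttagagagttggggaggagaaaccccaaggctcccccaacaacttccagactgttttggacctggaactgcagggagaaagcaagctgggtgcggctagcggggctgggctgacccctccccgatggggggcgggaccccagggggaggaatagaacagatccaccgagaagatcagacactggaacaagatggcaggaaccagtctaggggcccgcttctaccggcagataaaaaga
In Ndufs6 the capitals mark, from left to right, the nuclear respiratory factor 1 motif 25 bases upstream of the start and the YY1 motif 23 bases downstream of it. The same motifs stand in Ndufa6, at 21 bases upstream and 15 downstream. Atp5mc3 holds the receptor motif 57 bases upstream and the nuclear respiratory factor 1 motif 8 bases downstream. Uqcrq and Cox5b hold an ETS motif at 22 and 14 bases upstream, and the Ndufa4l2 window holds none of the 4. None of the matches overlap each other. Names of members without a promoter in these sequences are Atp5pd, Cox4i2, Cox6a1, Cox6c, Cox6c-ps1, Cyc1, Ndufa8, Ndufb9 and Uqcr11.

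Across the zones, most respiratory chain genes were highest in the transition zone, where chondrocytes stop dividing and begin to enlarge. Of 85 tested genes, 52 had their highest zone mean there, 12 in the proliferative zone, 10 in the hypertrophic zone, 7 in epiphyseal cartilage and 4 in the resting zone. The same count over all probe sets was not made. Transition samples also differ from both neighbouring zones in label wording, so zone and any difference in handling cannot be told apart. Relative to all probe sets, the members' median change into the transition zone was 0.26 as fitted and 0.27 with arrays scaled to one median. It was 0.11 after quantile normalization and 0.11 without the transition array of animal 5. The lowest zone mean lay in the resting zone for 38 genes, in the hypertrophic zone for 19 and in epiphyseal cartilage for 16. By complex, the transition zone was highest for 27 of 34 subunits of complex I, 13 of 15 of complex V and 5 of 8 of complex III, but for 5 of 15 of complex IV and 1 of 4 of complex II. Those 5 of complex IV were all among its 10 common subunits, and none was a muscle, testis or lung form. By class, limma's moderated F test over the zones passed at an adjusted p below 0.05 for 20 of 34 subunits of complex I, 3 of 6 assembly factors, 1 of 4 of complex II, 4 of 8 of complex III, 10 of 15 of complex IV, 7 of 15 of complex V and all 3 tested genes outside the complexes. Over all members that was 48 of 85 (56.5%), a share near the 55.6% of all probe sets tested. It fell to 30 without animal 5, to 32 without animal 2 and to 34 without animal 3. The zone levels lay close together: the median over all members, on the log2(signal + 16) scale, averaged 11.10 ± 0.26 (SD, n = 4) in epiphyseal cartilage and, with n = 5 each, 11.02 ± 0.19 in the resting, 11.27 ± 0.11 in the proliferative, 11.44 ± 0.18 in the transition and 11.21 ± 0.26 in the hypertrophic zone. Single arrays of all zones overlapped. In such bulk samples, fewer cells of a type and less RNA per cell cannot be told apart.

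**Figure D1:**
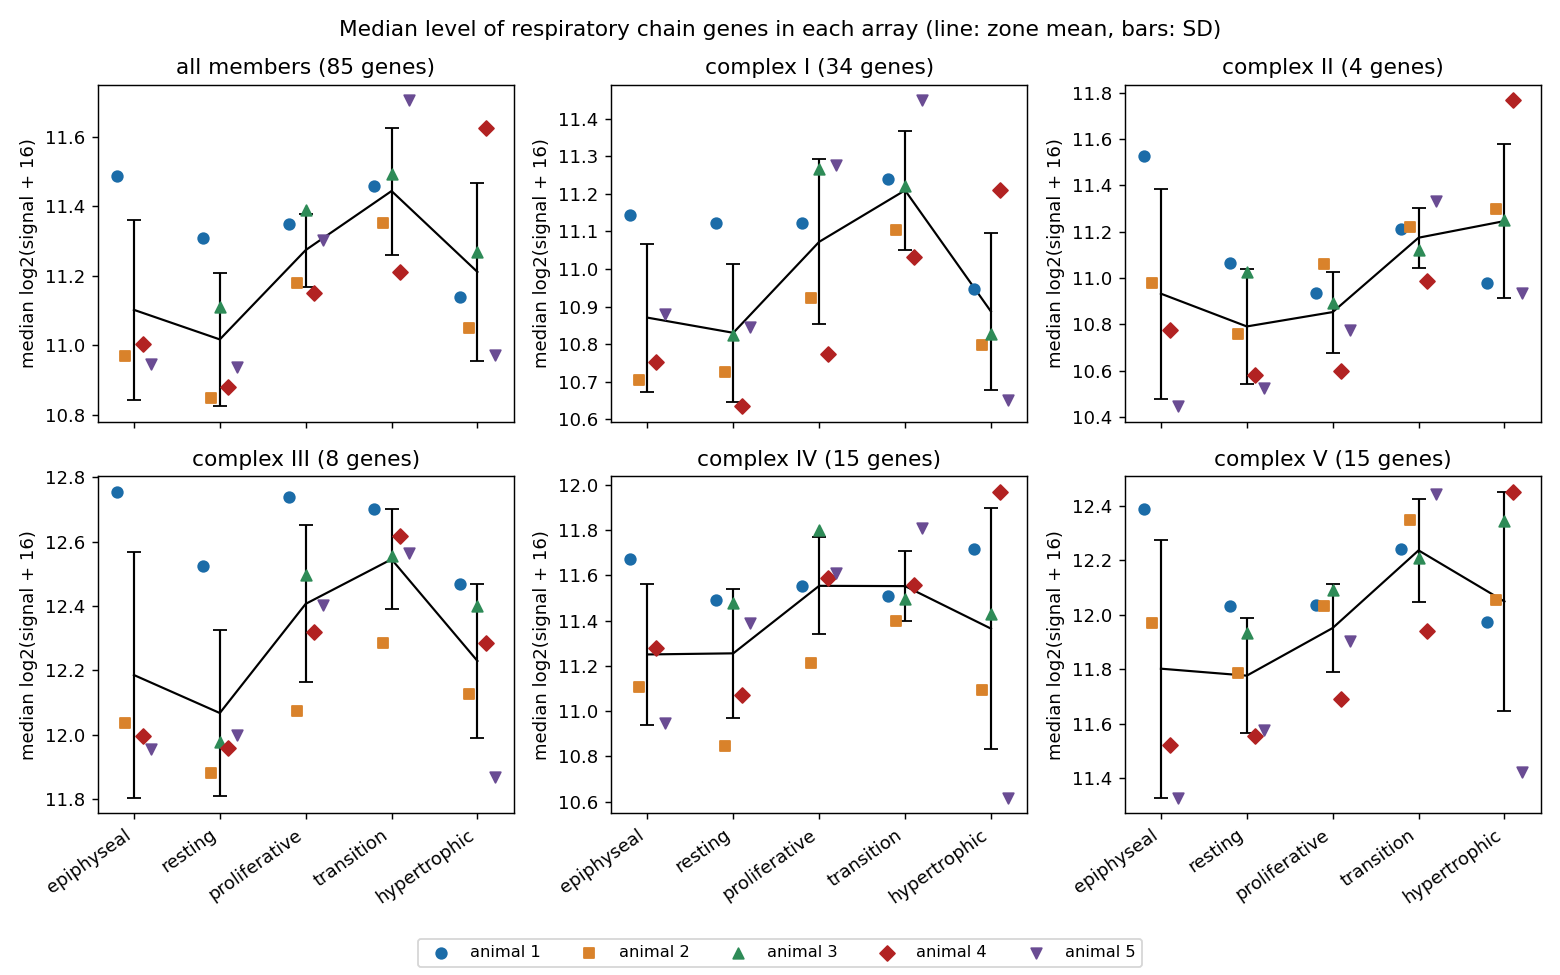
Median log2(signal + 16) of all members and of each complex in every array, with the 5 zones on the x axis, a symbol for each animal, and the zone mean with its SD as line and bars. The mean over all members is highest in the transition zone (11.44) and lowest in the resting zone (11.02), and the arrays of neighbouring zones overlap.

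**Figure D2:**
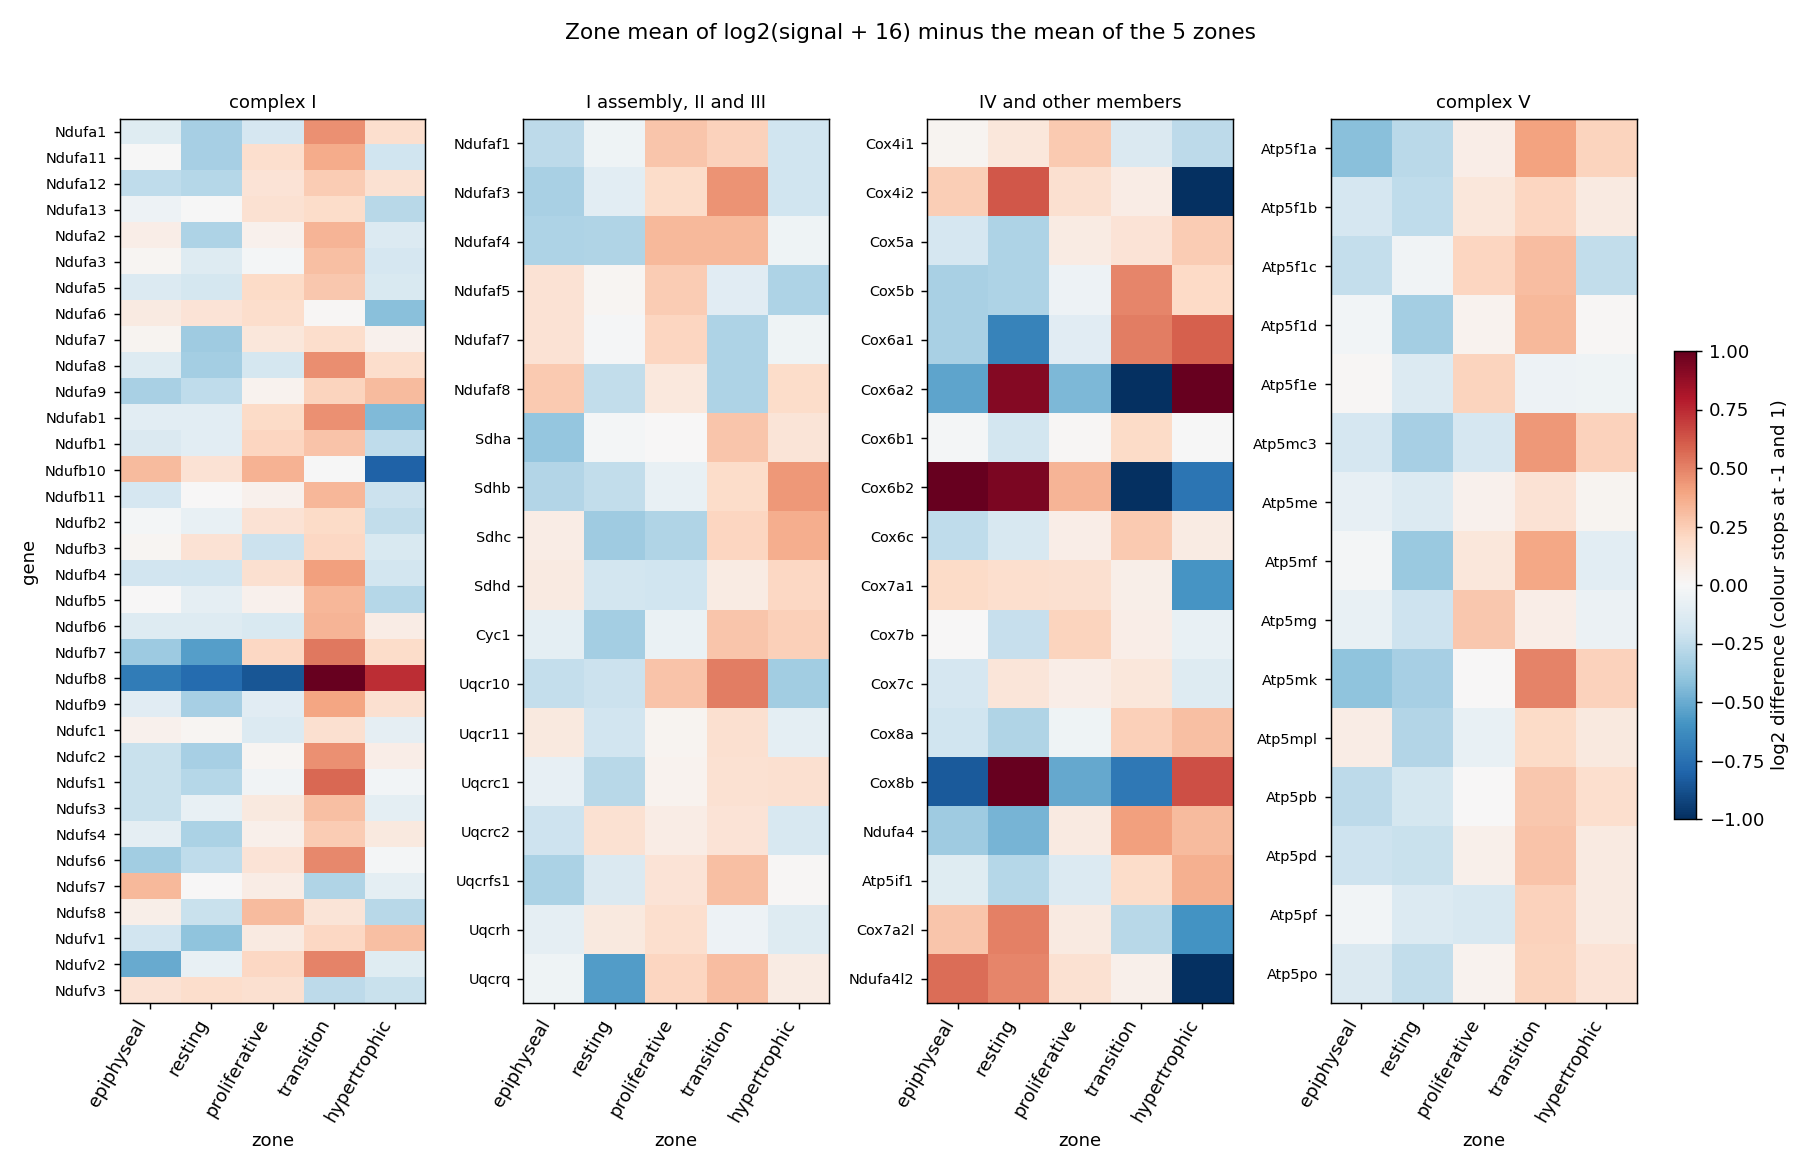
Zone mean of log2(signal + 16) of each tested gene minus its mean over the 5 zones, with genes by class on the y axis and zones on the x axis; red is above and blue below the gene's mean, and colours stop at a difference of 1 either way. The transition column is the reddest for 27 of 34 subunits of complex I and 13 of 15 of complex V, while Ndufa4l2, Cox4i2, Cox6a2, Cox6b2 and Cox8b depart from this.

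Between epiphyseal cartilage and the resting zone, no member passed the threshold. At limma's adjusted p below 0.05, 0 of 85 members were higher in the resting zone, where 1.14% of all probe sets were, and 0 were lower, where 1.37% were. At an unadjusted p below 0.05, 2 were higher and 5 lower. Quantile normalization gave 1 call. Their median change, resting minus epiphyseal, was -0.08 against 0.03 over all probe sets tested, with 28 members above 0 and 57 below. The largest change belonged to Cox8b, the muscle form of complex IV subunit 8 (log2 change 2.28, SE 0.67, adjusted p = 0.0747), whose signals were 164, 4.3, 7.2 and 29 in epiphyseal cartilage of animals 1, 2, 4 and 5 and 258, 22.7, 637, 63.1 and 783 in the resting zone of animals 1 to 5. Cox8b was higher in the resting zone in 4 of 4 animals with both zones, but the groups overlapped. Cox8b passed the filter on low signals through resting and hypertrophic arrays only. No epiphyseal array was above its median, so the test was run because of a group where the gene is high. Of 10 skeletal muscle markers tested, 1 was called higher in the resting zone, and all 10 lay above 0 (median 1.24). By animal, the members' median change was -0.14, -0.17, -0.15 and 0.06 in animals 1, 2, 4 and 5. Markers of hypertrophic chondrocytes summed to 28280 to 73790 in epiphyseal cartilage and to 11280 to 32100 in the resting zone, where 4 of 7 were lower (median -1.58). Epiphyseal arrays of animals 1 and 2 also held more signal of osteoclast and macrophage markers (7 genes, summed 64750 and 30580) than those of animals 4 and 5 (3283 and 2709). The same was true of endothelial markers (5830 and 4081 against 637.9 and 621.6) and of markers of hypertrophic chondrocytes and dividing cells. Leukocyte and chondrocyte markers were lower in animals 1 and 2 than in animals 4 and 5. Without those 2 arrays the members' median change was -0.01 and again 0 were called. What part muscle, osteoclasts, endothelium or other cells had in the members' signals was not tested. Epiphyseal and resting samples differ in label wording, so zone and any difference in handling cannot be told apart.

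From the resting to the proliferative zone, where chondrocytes divide in columns, 6 members rose and 1 fell. Those that rose came from complexes I, III, IV and V: the complex I subunits Ndufb7 and Ndufv1, the complex III subunit Uqcrq, the common complex IV subunit Cox6a1, the complex V membrane subunit Atp5mf and the complex I assembly factor Ndufaf4. The share that rose, 6 of 85, compares with 6.4% of all probe sets tested, and the 1 that fell, the muscle form Cox8b, with 7.55%. The median change was 0.24 against -0.02 over all probe sets, and 69 of 85 members were above 0. By class, the median was 0.24 in complex I, 0.31 over the assembly factors, 0.28 in complex III, 0.26 over the common subunits of complex IV, 0.29 in complex V and 0.04 in complex II, and each animal's median over the members was above 0 (0.06, 0.30, 0.28, 0.23 and 0.27 in animals 1 to 5).

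Ndufb7, a subunit of the membrane arm of complex I, had signals of 2904, 1525, 2081, 1734 and 1942 in the resting zone of animals 1 to 5 and of 4407, 2415, 3753, 3485 and 3135 in the proliferative zone. It was 1.69-fold higher in the proliferative zone (log2 change 0.76, SE 0.12, adjusted p = 9.34e-05) and rose in every animal, although the groups overlapped through the high resting value of animal 1. Uqcrq, a small subunit of complex III, gave 9133, 5203, 3965, 4959 and 5915 in the resting and 12374, 6951, 9167, 10307 and 10056 in the proliferative zone and was 1.71-fold higher (log2 change 0.78, SE 0.14, adjusted p = 0.000294). Here too animal 1 had the highest resting value, above the proliferative value of animal 2. Ndufv1, the core subunit that binds NADH, stood at 2109.9, 1855, 1750, 1573 and 1678 in the resting zone and at 2595, 2459, 2576, 2460.2 and 2509 in the proliferative zone. All 5 proliferative values exceeded all 5 resting values, a 1.41-fold difference (log2 change 0.49, SE 0.11, adjusted p = 0.00384). Among the rest, Ndufaf4 was 1.54-fold higher (adjusted p = 0.00235), Cox6a1 1.47-fold (adjusted p = 0.0208) and Atp5mf 1.4-fold (adjusted p = 0.0209), each in 5 of 5 animals with overlapping groups. Both zones share their label wording. The total of 7 calls was 18 when only these zones were fitted and 19 with array weights, 12 without the hypertrophic array of animal 4 and 11 without the transition array of animal 5, but 4 without animal 3, in which case Cox6a1, Atp5mf and Cox8b were lost. With arrays scaled to one median the calls split 8 higher to 0 lower, and with no animal block 4 were left.

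Entering the transition zone, 8 members rose and 3 fell. The largest rise was that of Ndufb8, a membrane-arm subunit of complex I. It was tested only because of its transition and hypertrophic arrays, where it is high. Ndufa8 and Ndufa1, 2 more accessory subunits of complex I, rose too, as did Atp5mc3 and Atp5mk of the membrane part of complex V. So did Cox5b and Cox6a1 of complex IV and Sdhc, a membrane anchor of complex II. Rises, with Ndufb8 counted, made up 8 of 85 members against 8.85% of all probe sets, and falls 3 of 85 against 12.5%. Cox6b2, the testis form of complex IV subunit 6B, Ndufs7, the complex I core subunit that holds the last iron-sulfur cluster before ubiquinone, and the assembly factor Ndufaf7 fell, the last named after its values were seen since it rose in 1 animal. The median change was 0.20 against -0.07 over all probe sets, and 64 members were above 0. By class, it was 0.26 in complex I, 0.28 in complex II, 0.13 in complex III, 0.19 over the common subunits of complex IV, 0.26 in complex V and -0.21 over the 6 assembly factors.

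Signals of Ndufb8 were 45.3, 31.4, 101.4, 22.9 and 23.8 in the proliferative zone of animals 1 to 5, 382, 239, 227, 294 and 312 in the transition zone and 309.6, 41.8, 307, 285 and 56.4 in the hypertrophic zone. All transition values lay above all values of the epiphyseal, resting and proliferative arrays (36.8 to 64.7, 19.9 to 124 and 22.9 to 101.4), and the change from the proliferative zone was 5.44-fold (log2 change 2.44, SE 0.43, adjusted p = 0.000179). Ndufb8 passed the filter on low signals only through the 5 transition arrays and 3 hypertrophic arrays, the groups where it is high. Hypertrophic values formed a high set in animals 1, 3 and 4 and a low set in animals 2 and 5, and the fall from the transition zone did not pass the test (log2 change -0.85, SE 0.43, adjusted p = 0.165). No other complex I subunit changed by a factor of 2 or more here. Ndufa1, a small accessory subunit in the membrane arm, gave 12276, 9236, 10577, 6113 and 9042 in the proliferative and 17446, 12573, 12736, 12088 and 16938 in the transition zone, a 1.54-fold rise (log2 change 0.62, SE 0.14, adjusted p = 0.00227). The groups overlapped only through the proliferative array of animal 1. Ndufa8 rose 1.56-fold (adjusted p = 0.01).

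Atp5mc3 codes for subunit c, which forms the proton-driven ring of complex V. Its signals were 9226, 8313, 8539, 5529 and 7238 in the proliferative and 12983, 10710.2, 12154, 9113 and 13788 in the transition zone (1.52-fold, log2 change 0.60, SE 0.15, adjusted p = 0.0052), higher in 5 of 5 animals with overlapping groups. Cox5b, a complex IV subunit, gave 3208, 2249, 3551, 3068 and 3323 and 4599, 3009, 4305, 4615 and 6176 in the same zones (1.45-fold, log2 change 0.54, SE 0.14, adjusted p = 0.00755). The rise of Cox6a1 was 1.55-fold (log2 change 0.63, SE 0.16, adjusted p = 0.00593), that of Sdhc 1.43-fold (adjusted p = 0.0482) and that of Atp5mk 1.41-fold (adjusted p = 0.0118). Cox6b2 went the other way, from 172, 81.3, 135, 107 and 118 to 36.6, 8.5, 60.9, 13.5 and 4.5, with no overlap, and fell by 1.92 on the log2 scale (SE 0.45, adjusted p = 0.00314). Cox6b2 passed the filter through 2 epiphyseal, 3 resting and 1 proliferative array. Signals this low sit near the pseudocount of 16, so this scale understates their fold. Ndufs7 fell by 0.37 (adjusted p = 0.0322), and both this call and that of Sdhc were lost in most leave-one-out fits and without the transition array of animal 5. That array also moved the counts: without it 6 members rose and 1 fell, and without animal 5 altogether 5 rose and 1 fell. Animal 5 had the largest median change (0.40, against 0.04 to 0.18 in the other animals). Quantile normalization gave 7 higher and 6 lower calls, scaling to one median 10 and 1. Label wording is not the same for transition and proliferative samples, so zone and any difference in handling cannot be told apart here.

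**Figure D3:**
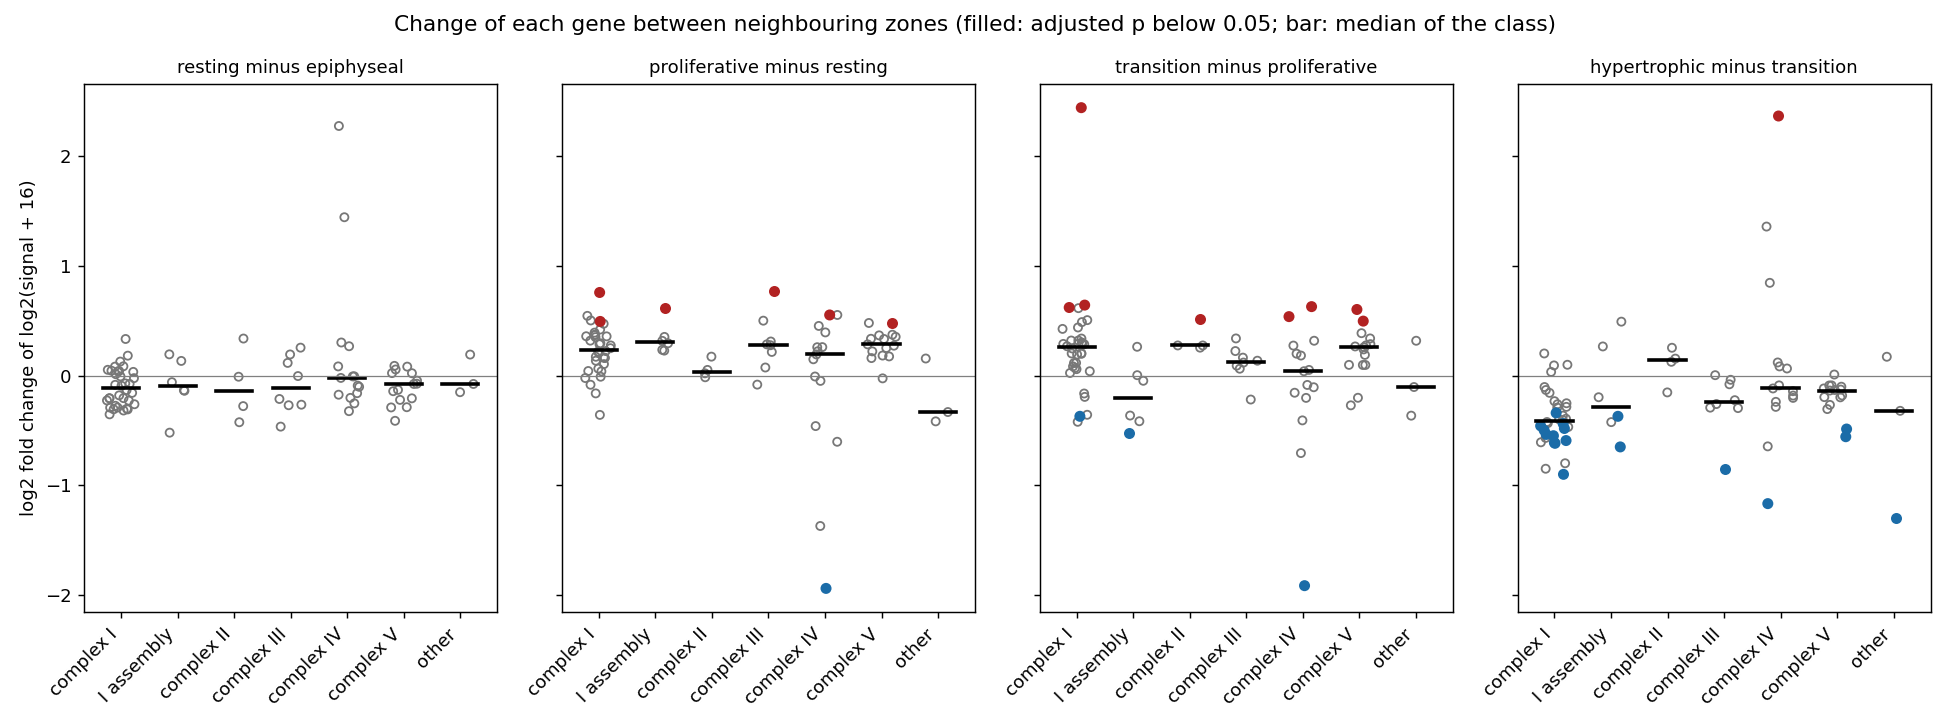
Change of each tested member between neighbouring zones, one panel per pair of zones, with the class of gene on the x axis and the log2 fold change on the y axis; filled points passed at an adjusted p below 0.05 (red higher, blue lower) and bars mark class medians. Complex I makes up 34 of the 85 members tested. It holds 11 of the 18 that fell from the transition to the hypertrophic zone (32.4% of complex I, 11% of all probe sets). Of the 8 that rose into the transition zone it holds 3 (8.82% of complex I, 8.85% of all probe sets).

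In the hypertrophic zone, where cells are largest and the matrix mineralizes, 18 members were lower than in the transition zone and 1 was higher. Complex I supplied 11 of the falls (Ndufab1, Ndufv2, Ndufb5, Ndufb4, Ndufb11, Ndufb1, Ndufs6, Ndufa2, Ndufa13, Ndufb2 and Ndufb7), and its assembly factors Ndufaf3 and Ndufaf4 a further 2. The others were Uqcr10 of complex III, Atp5mf and Atp5f1c of complex V, the low-oxygen form Cox4i2 and Ndufa4l2, while the muscle form Cox6a2 rose. Falls made up 18 of 85 members (21.2%) where 11% of all probe sets fell, and the 1 rise compares with 11.5%. The median change was -0.24 against 0.02 over all probe sets, with 67 members below 0.

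By class, the median change was -0.41 in complex I, where 10 of 28 accessory and 1 of 6 core subunits fell and 30 of 34 lay below 0, and -0.28 over the assembly factors. Medians of accessory and core subunits were alike (-0.43 and -0.40). At limma's unadjusted p below 0.05, 14 of 28 accessory and 4 of 6 core subunits were lower. The median change was -0.24 in complex III with 1 of 8 called and -0.14 in complex V with 2 of 15 called. Over the 10 common subunits of complex IV it was -0.13 with 0 called. In complex II the median was 0.14 and 0 of 4 were called in either direction, with 0 at an unadjusted p below 0.05. Scaling the arrays to one median moved the median of all probe sets from 0.02 to -0.24, from -0.02 to 0.08 in the step into the proliferative zone and from -0.07 to 0.09 in that into the transition zone. Relative to all probe sets, the members' median was -0.26 as fitted, -0.27 after that scaling and -0.07 after quantile normalization. Falls numbered 34, 19 of them in complex I, with arrays scaled to one median, 10 with 4 in complex I after quantile normalization, and 7 with 5 in complex I with no animal block. The median of complex II turned below 0 under scaling to one median (-0.13) and without the hypertrophic array of animal 4 (-0.02). With a gene's probe sets averaged it was 0.02.

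Uqcr10, a small membrane subunit of complex III, had signals of 9066, 8342, 8776, 8532 and 10305 in the transition zone of animals 1 to 5 and of 6053, 6049, 6494, 4523 and 2798 in the hypertrophic zone. The groups did not overlap, and the hypertrophic level was 0.554 times that of the transition zone (log2 change -0.85, SE 0.17, adjusted p = 0.000807). Ndufb1 of complex I stood at 2159, 2608, 2161, 2299 and 3286 and then at 1897, 2096, 1659.5, 1834 and 1166 (0.689 times, log2 change -0.54, SE 0.17, adjusted p = 0.0264), again without overlap. Ndufb2 separated the zones as well, with 3778, 3463, 3093, 3342 and 4627 against 2831, 2753, 2675, 2792 and 2344 (0.739 times, log2 change -0.44, SE 0.13, adjusted p = 0.0183). Both code for accessory subunits of the membrane arm. Ndufb11, another of these, gave 2821, 2077, 2916, 3269 and 3685 and 2058, 1689, 1536, 2362 and 2414 (0.684 times, log2 change -0.55, SE 0.15, adjusted p = 0.00783), lower in every animal with overlapping groups. Ndufs6, an accessory subunit of the arm that takes up electrons from NADH, gave 6777, 4695, 5918, 5139 and 7287 and 4849, 2729, 5174, 4919 and 3700.4 (0.708 times, log2 change -0.50, SE 0.15, adjusted p = 0.0215). Its fall was small in animal 4 and largest in animal 5. Atp5mf, which had risen into the proliferative zone, fell back (0.713 times, log2 change -0.49, SE 0.14, adjusted p = 0.0128).

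The medians of the animals ranged more widely in this step than in the other 4 comparisons. The members' median change was -0.24, -0.24, -0.11, 0.21 and -0.80 in animals 1 to 5, and that of complex I -0.41, -0.30, -0.20, 0.15 and -1.05. In animal 4, 62 of 85 members were higher in the hypertrophic array, and in animal 5, 75 were lower. The hypertrophic array of animal 4 had by far the most signal of osteoclast and macrophage markers (84240, against 8792 to 13230 in the other hypertrophic arrays and 1187 to 2139 in the transition zone). All hypertrophic sums also lay above all transition sums in several further lists. Erythroid markers (6 genes) summed to 9996 to 35570 against 1123 to 5652, leukocyte markers (6 genes) to 2610 to 10700 against 462 to 2005. Osteoblast markers (5 genes) summed to 49880 to 145100 against 7278 to 16240, endothelial markers (6 genes) to 850 to 2824 against 468.6 to 673.4, and markers of dividing cells to 4437 to 10760 against 2537 to 4404. Of the hypertrophic arrays, those of animals 4 and 5 were the highest in markers of dividing cells. That of animal 4 was also the highest in osteoblast (145100) and endothelial (2824) markers, and that of animal 5 in erythroid (35570) and leukocyte (10700) markers. The part of such cells in the members' signals was not tested. Leaving out the hypertrophic array of animal 4 gave 27 falls and 1 rise, 18 falls in complex I and a median of -0.36. Leaving out the transition array of animal 5 gave 6 falls and 1 rise, 2 falls in complex I and a median of -0.11. Calls numbered 10 without animal 1, 6 without animal 2, 14 without animal 3, 26 without animal 4 and 4 without animal 5, where the median was -0.05. Ndufa4l2, Uqcr10, Ndufb11 and Cox6a2 kept their calls in every such fit. Here too the labels of the zones are worded differently, so zone and any difference in handling cannot be told apart.

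**Figure D4:**
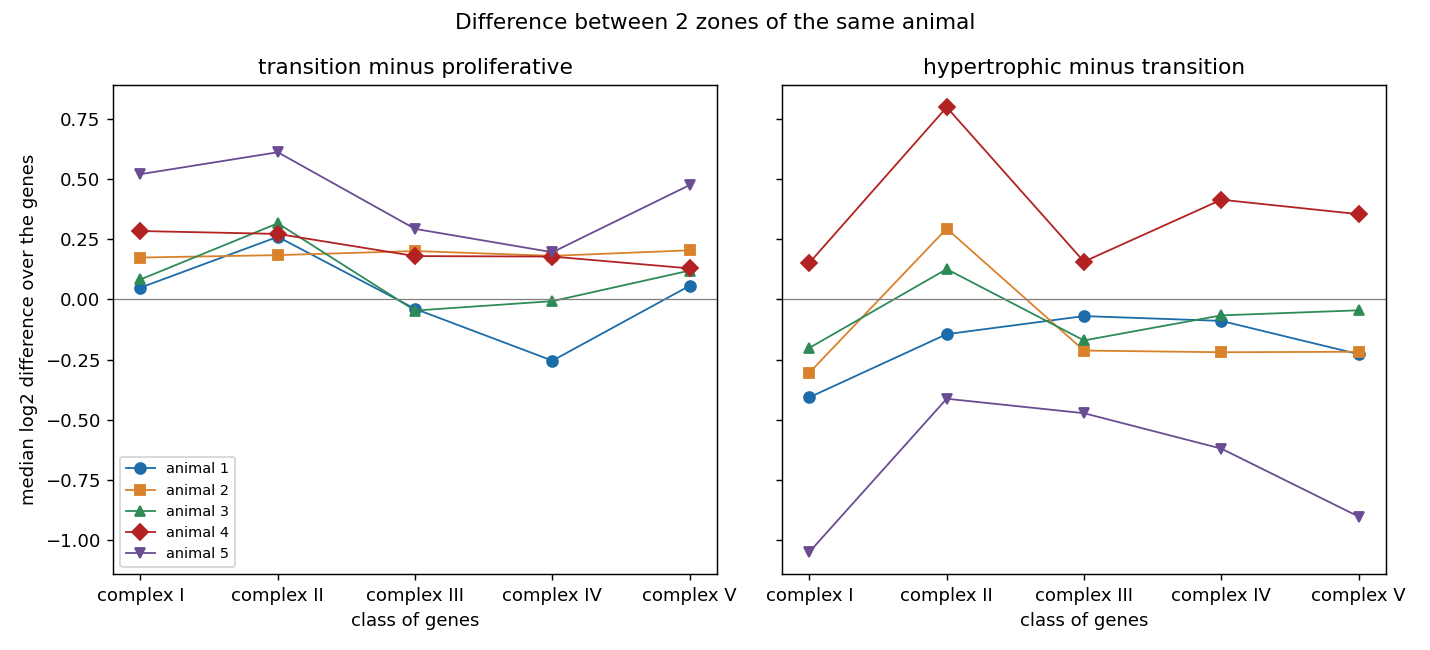
Median log2 difference between 2 zones of the same animal for each complex (x axis), one line per animal; left, transition minus proliferative, and right, hypertrophic minus transition. In the right panel complex II lies above complex I in all 5 animals, while the whole line of animal 4 is above 0 and that of animal 5 below 0.

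The hypertrophic and proliferative zones, whose labels are worded alike, differed in 21 members. Higher in the hypertrophic zone were 6 of 85, where 16.9% of all probe sets were: Cox6a2, Ndufb8, Cox6a1, Sdhc, Atp5if1 and Atp5mc3. Of these, Ndufb8 was tested only because of its transition and hypertrophic arrays, so its call comes from the groups where it is high. Its hypertrophic signals in animals 2 and 5 (41.8 and 56.4) lay within its proliferative range (22.9 to 101.4). Lower were 15, against 20.5% of all: Ndufa4l2, Cox4i2, Cox7a2l, Uqcr10, the complex I subunits Ndufa6, Ndufb2, Ndufb10, Ndufab1, Ndufs8, Ndufb1 and Ndufa13, the assembly factors Ndufaf5 and Ndufaf4, and Cox4i1 and Cox7a1 of complex IV. Both shares lay below those of all probe sets. Markers of other cells were higher in the hypertrophic zone as well: 6 of 6 tested for osteoclasts and macrophages (summed signal 8792 to 84240 against 693.2 to 1427), 5 of 5 for erythroid cells, 6 of 6 for leukocytes, 4 of 4 for osteoblasts and 3 of 5 for endothelium. Their part in the members' values was not tested. The median change was -0.07 against -0.05, with 37 members above 0 and 48 below, and it was 0.04 without animal 5. Complex I had 7 falls and 1 rise of 34 (median -0.16), and complex II 1 rise of 4 (median 0.46).

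Ndufa6, an accessory subunit of complex I to which the acyl carrier protein Ndufab1 binds, had signals of 1975, 1959, 2426, 1485 and 2263 in the proliferative zone of animals 1 to 5 and of 1624, 1409.8, 1031, 1306 and 1271 in the hypertrophic zone (0.662 times, log2 change -0.60, SE 0.17, adjusted p = 0.00793). It was lower in every animal, and the call was lost without animal 3 (adjusted p = 0.078). Ndufaf5, an assembly factor that modifies Ndufs7, gave 814, 1253, 1211, 1143 and 1109 and 729, 715, 788, 704 and 749.8 with no overlap (0.678 times, log2 change -0.56, SE 0.15, adjusted p = 0.00471). Atp5if1, which inhibits complex V when it runs in reverse, went up from 1286, 1185, 1175, 1074 and 979.6 to 1609, 1907, 1505, 1510.3 and 1506, also with no overlap (1.41-fold, log2 change 0.49, SE 0.14, adjusted p = 0.00715). Its call was lost when arrays were scaled to one median (adjusted p = 0.0836) and when its probe sets were averaged. Ndufb10 was singled out after its values were seen: its signals were 1084, 576, 1179, 1059.6 and 858 in the proliferative zone and 540, 533, 731, 1096 and 36.6 in the hypertrophic zone, where the array of animal 5 lay far below the rest (log2 change -1.16, SE 0.44, adjusted p = 0.0413). The 21 calls became 13 without animal 1, 12 without animal 3 and 12 with no animal block, and with scaling to one median they split 3 higher to 16 lower.

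Complex II, succinate dehydrogenase, also works in the tricarboxylic acid cycle, and its highest zone mean was in the hypertrophic zone for Sdhb, Sdhc and Sdhd and in the transition zone for Sdha. Sdhc had signals of 2083, 1640.4, 1603, 1339 and 1264 in the resting zone of animals 1 to 5, 1439.6, 2301, 1527, 1361 and 1615 in the proliferative, 2246, 2768, 2144, 1886 and 2655 in the transition and 2085, 3353, 2781, 3252 and 1814 in the hypertrophic zone. The highest values were hypertrophic, of animals 2 and 4, and neighbouring zones overlapped. From the proliferative to the hypertrophic zone it was 1.59-fold higher in 5 of 5 animals (log2 change 0.67, SE 0.18, adjusted p = 0.00562). That call was lost without animal 4 (adjusted p = 0.0514) and with arrays scaled to one median (adjusted p = 0.0534). Of the hypertrophic arrays, that of animal 4 had the highest sums of osteoclast and macrophage (84240), osteoblast and endothelial markers. Sdha, the catalytic subunit that binds flavin, showed 2267 ± 161 (SD, n = 5) in the proliferative and 2545 ± 746 in the hypertrophic zone (log2 change 0.12, SE 0.17, adjusted p = 0.616). Sdhb, the iron-sulfur subunit, showed 1599 ± 251 and 2290 ± 426 (log2 change 0.51, SE 0.24, adjusted p = 0.0931), and Sdhd, the other anchor, 1915 ± 169.9 and 2627 ± 806 (log2 change 0.40, SE 0.17, adjusted p = 0.0675). These 3 did not pass the test. A second Sdhd probe set, of lower signal, changed by 0.03 (limma, adjusted p = 0.949). With a gene's probe sets averaged, the median of complex II in this comparison was 0.36. From the proliferative zone, complex II's median change was 0.12, 0.51, 0.35, 1.13 and 0.20 in animals 1 to 5, largest in animal 4. The part of other cells in it was not tested. From the transition zone it was -0.14, 0.29, 0.13, 0.80 and -0.41, and in each animal it lay above that of complex I, a difference that was not tested.

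Several members come in pairs of a common form and a relative of narrower use, chiefly in complex IV. Ndufa4l2 is a relative of the complex IV subunit Ndufa4 that is known to be induced at low oxygen. Its signals were 2491, 2718, 5584 and 8072 in epiphyseal cartilage of animals 1, 2, 4 and 5, and, in animals 1 to 5, 3193, 2875, 2772, 5689.6 and 6807 in the resting, 3239, 1798, 2991, 3276 and 5436 in the proliferative, 2669, 1542, 3424, 4014 and 3821 in the transition and 1245, 706, 1558, 840.4 and 2001 in the hypertrophic zone. It was lowest in the hypertrophic zone of every animal, at 0.407 times the transition level (log2 change -1.30, SE 0.20, adjusted p = 4.33e-05) and 0.379 times the proliferative level (log2 change -1.40, SE 0.20, adjusted p = 5.16e-06). The groups overlapped only through animal 2, whose proliferative and transition values lay below the hypertrophic value of animal 5. Ndufa4 itself had means of 1448 ± 743 (SD, n = 4) in epiphyseal cartilage and, with n = 5, of 1225 ± 300 in the resting, 1896 ± 749.8 in the proliferative, 2247 ± 496 in the transition and 2163 ± 780.2 in the hypertrophic zone. It passed the F test over zones (adjusted p = 0.0281) and no comparison of neighbouring zones, and neighbouring means lay within the spread of the arrays.

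Cox4i2, the form of subunit 4 known from lung and from cells at low oxygen, also had its lowest zone mean in the hypertrophic zone. Signals were 156, 268, 1346 and 1456 in epiphyseal cartilage of animals 1, 2, 4 and 5, then, in animals 1 to 5, 466, 561, 575, 1102 and 1076 in the resting, 406, 408, 559.8, 437 and 856 in the proliferative, 246, 397, 775, 434 and 769 in the transition and 226, 178, 336, 76.2 and 332 in the hypertrophic zone. Hypertrophic values lay below all proliferative values (0.42 times, log2 change -1.25, SE 0.37, adjusted p = 0.00869) and overlapped those of the transition zone (0.445 times, log2 change -1.17, SE 0.37, adjusted p = 0.0225). The latter call was lost without the hypertrophic array of animal 4, whose value was the lowest (log2 change -0.76, adjusted p = 0.0927). Its common partner Cox4i1 was also lower in the hypertrophic than the proliferative zone (3347, 2166, 4922, 4549 and 3489 against 6559.6, 3124, 7608, 3705 and 6095 in animals 1 to 5), at 0.695 times (log2 change -0.53, SE 0.15, adjusted p = 0.00792). It was higher in animal 4 only, and the groups overlapped.

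Cox6a1, the common form of subunit 6A, rose at each step from the resting to the transition zone. Its signals were 6203, 3111, 2869, 4130.4 and 3985 in the resting zone, 6225, 4455, 5425, 6082 and 6821 in the proliferative, 9726, 6143, 8447, 9276 and 11840 in the transition and 9927, 7358, 10865, 10899 and 8569.9 in the hypertrophic zone of animals 1 to 5. All hypertrophic values exceeded all proliferative ones (1.64-fold, log2 change 0.71, SE 0.16, adjusted p = 0.000981), while hypertrophic and transition values did not differ beyond their spread (log2 change 0.08, SE 0.16, adjusted p = 0.757). The rise into the proliferative zone was lost without animal 2, 3 or 4 (adjusted p = 0.0794, 0.108 and 0.0684). Cox6a2, the muscle form, varied widely between animals: 484, 22.3, 901, 138 and 522 in the resting, 174, 148, 17.7, 119.9 and 72 in the proliferative, 134, 28.8, 78, 10.6 and 48.8 in the transition and 513, 182, 201, 258 and 621 in the hypertrophic zone. It was 5.16-fold higher in the hypertrophic than the transition zone (log2 change 2.37, SE 0.61, adjusted p = 0.0062) and 3.16-fold higher than in the proliferative zone (log2 change 1.66, SE 0.61, adjusted p = 0.0338), with no overlap in either. Cox8b, the muscle form of subunit 8, gave 258, 22.7, 637, 63.1 and 783 in the resting, 142, 16.8, 9.7, 8.9 and 143 in the proliferative, 24.6, 33, 11.5, 34.9 and 77.4 in the transition and 128, 24.4, 125, 129 and 228 in the hypertrophic zone, and fell by 1.94 on the log2 scale from the resting to the proliferative zone (SE 0.62, adjusted p = 0.0381). Cox8b passed the filter on low signals at its limit, through 3 resting arrays (animals 1, 3 and 5) and 1 hypertrophic one (animal 5). No proliferative array was above its median, so the test was run because of the group where the gene is high. That call was lost under 9 alternatives, among them leaving out animal 1, 3, 4 or 5. The common form Cox8a passed the F test (adjusted p = 0.00382), with means of 5150 ± 1416 in the resting and 7690 ± 1533 in the hypertrophic zone.

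Skeletal muscle markers varied beside both muscle forms. Summed over 13 genes such as Acta1, Myl1 and Tnnc2, they were 63000, 19900, 117600, 31800 and 83410 in the resting zone of animals 1 to 5 and ranged over 21040 to 38790 in the proliferative, 17180 to 39290 in the transition and 31640 to 90940 in the hypertrophic zone. Resting arrays of animals 3 and 5, the highest in Cox8b, were also the highest in these markers, and that of animal 2 was the lowest in both and in Cox6a2. Other zones did not show this match. The transition array of animal 5 was the highest in Cox8b (77.4) and the lowest in these markers (17180). Among hypertrophic arrays, animal 1 had the highest sum (90940), while animal 5 (62890) was the highest in Cox6a2 (621) and Cox8b (228). Of 10 muscle markers tested, 5 fell from the resting to the proliferative zone, where 7.55% of all probe sets fell. From the transition to the hypertrophic zone 6 rose, where 11.5% of all probe sets rose. In addition, 5 of the 13 were below the array median in all transition arrays, 4 in all proliferative arrays and 2 in all arrays of each other zone. Their part in the values of Cox6a2 and Cox8b was not tested. Cox7a1, a heart and muscle form of subunit 7A, did not share this course: its signals were 213, 119, 237, 419 and 318 in the proliferative and 82, 157, 139.6, 167 and 158 in the hypertrophic zone (log2 change -0.75, SE 0.26, adjusted p = 0.0242). Cox6b2 was highest in epiphyseal and resting cartilage (124 to 406 and 93.8 to 279) and lowest in the transition zone (4.5 to 60.9), and its common partner Cox6b1 did not pass the F test (adjusted p = 0.409), with zone means from 4510 to 5765.

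**Figure D5:**
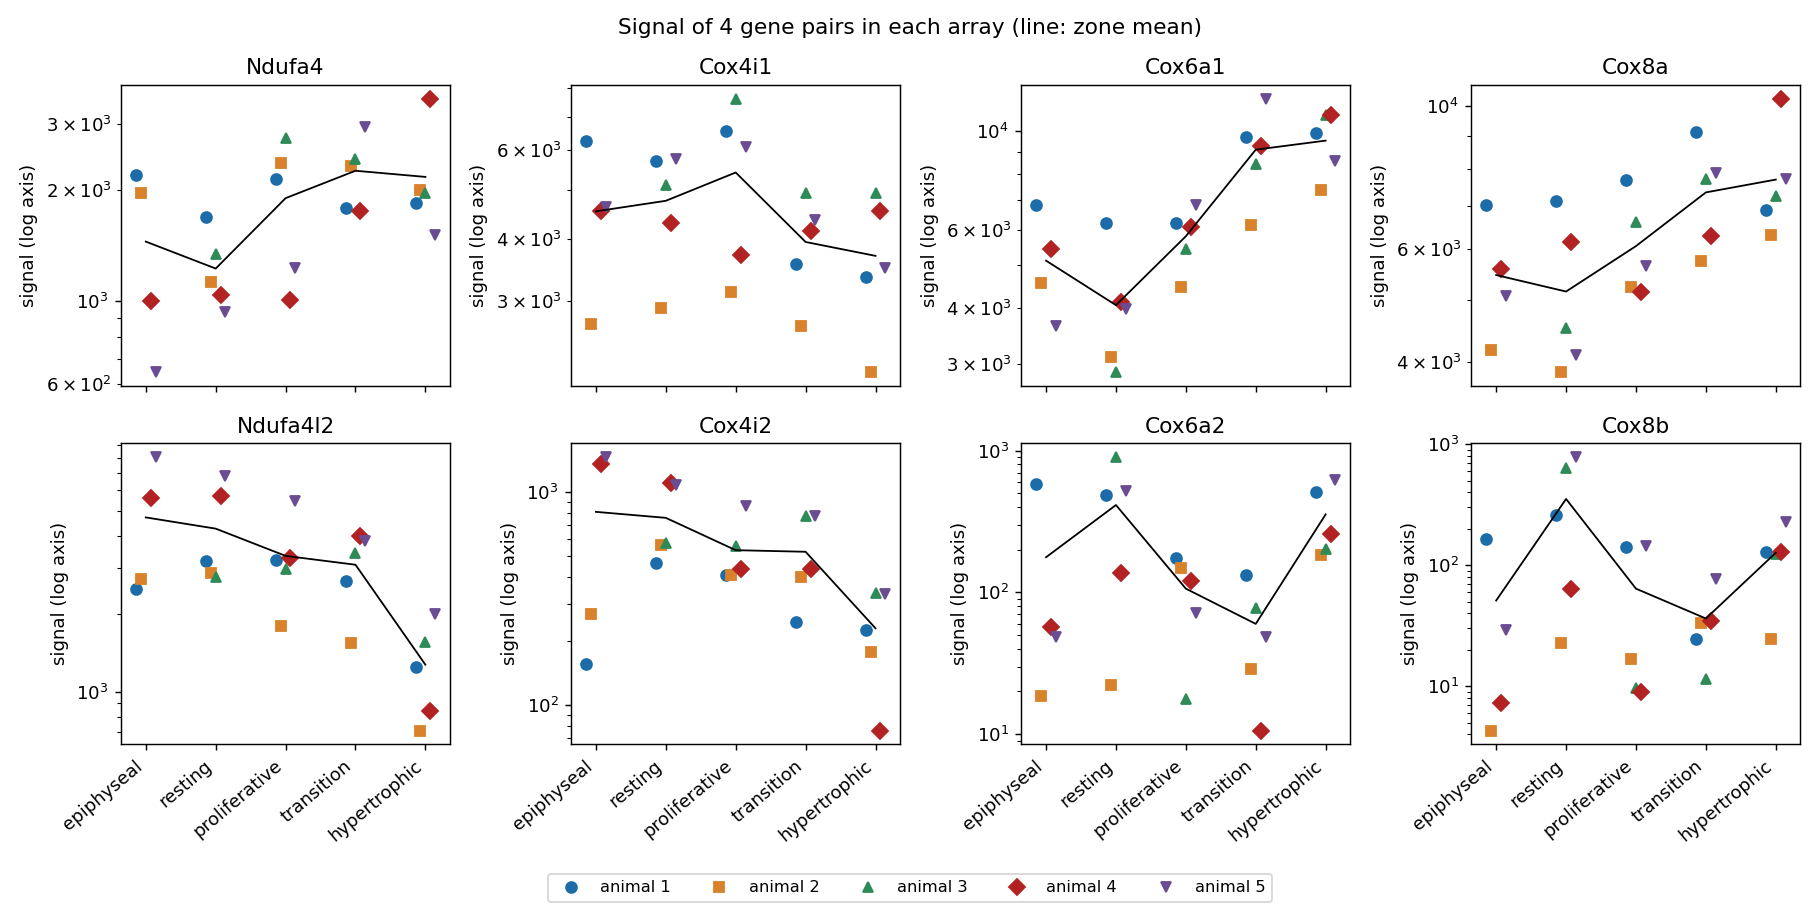
Signal in every array, on a log axis, of Ndufa4, Cox4i1, Cox6a1 and Cox8a (top) and of their partners Ndufa4l2, Cox4i2, Cox6a2 and Cox8b (bottom), by zone, with a symbol per animal and a line through the zone means. Ndufa4l2 and Cox4i2 are lowest in the hypertrophic zone, Cox6a1 is highest there, and the muscle forms Cox6a2 and Cox8b are high in some resting arrays and low in the transition zone.

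Cox7a2l, which joins complexes III and IV into larger assemblies, had its highest zone mean in the resting and its lowest in the hypertrophic zone. Its signals were 17009, 10878, 21982, 11068 and 13141 in the resting zone of animals 1 to 5, 11542, 8761, 9727, 11775 and 12017 in the proliferative, 9336, 8249.6, 8743, 7624 and 7643 in the transition and 7230.5, 6673, 6509, 5665 and 7222 in the hypertrophic zone. No single step passed the test, but the hypertrophic values lay below all proliferative values (0.622 times, log2 change -0.69, SE 0.16, adjusted p = 0.00122). Cyc1, the cytochrome c1 of complex III, passed the F test (adjusted p = 0.00737), with means from 2187 ± 339 in the resting to 3357 ± 464 in the transition zone. Uqcrh, which holds cytochrome c1 in place in complex III, and Atp5f1e, the small epsilon subunit of complex V, did not pass it: the zone means of Uqcrh ran from 7978 to 9801 and those of Atp5f1e from 15430 to 19640 (F test, adjusted p = 0.156 and 0.226).

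Cytochrome c (Cycs) and 7 other genes of the pattern have 9 probe sets that also carry the symbol of another gene, mostly a pseudogene or a near copy, and so lie outside the members. One of 2 such Cycs probe sets was higher in the proliferative than the resting zone (log2 change 0.75, adjusted p = 0.0177), and the other in the transition than the proliferative zone (log2 change 0.85, adjusted p = 0.00157). On these probe sets, signal of Cycs and its copies cannot be told apart. Cox7a2, the common partner of Cox7a1, shares its probe set in the same way and did not pass the F test (adjusted p = 0.245). A second probe set exists for 9 members. For Ndufaf7, the only one of them called in a comparison of neighbouring zones, the second probe set did not pass the test into the transition zone (log2 change 0.37, adjusted p = 0.367, against -0.52, adjusted p = 0.0364).

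Other mitochondrial pathways gave the following counts at the same threshold. Over all probe sets, as above, 6.4% rose and 7.55% fell from the resting to the proliferative zone, 11.5% rose and 11% fell from the transition to the hypertrophic zone, and 16.9% were higher and 20.5% lower in the hypertrophic than the proliferative zone. Mitochondrial ribosomal proteins, which make the subunits coded in mitochondrial DNA, had 10 rises (13.7%) and 1 fall of 73 from the resting to the proliferative zone and 2 rises and 12 falls (16.4%) from the transition to the hypertrophic zone, where their median was -0.25. Import machinery and chaperones had 8 rises (25.8%) and 0 falls of 31 in the first of these steps and 0 rises and 12 falls (38.7%) in the second (median -0.40), led by Timm8a1 (log2 change -1.64, SE 0.22, adjusted p = 8.03e-06) and the chaperonin Hspd1 (log2 change -1.04, SE 0.20, adjusted p = 0.000516). Of the enzymes of the tricarboxylic acid cycle, 0 of 14 were called between the transition and hypertrophic zones (0 higher and 2 lower at an unadjusted p below 0.05). Against the proliferative zone 5 were higher (35.7%) and 1 lower in the hypertrophic zone, with Pdhb of the pyruvate dehydrogenase complex first (log2 change 0.71, SE 0.12, adjusted p = 3.7e-05). Fatty acid oxidation had 5 rises (29.4%) and 2 falls (11.8%) of 17 between those zones, with rises of Acadvl, which starts the breakdown of very long chains (log2 change 0.82, SE 0.14, adjusted p = 3.99e-05), and of the carnitine carrier Slc25a20. Assembly factors outside the pattern had 2 rises (7.41%) and 5 falls (18.5%) of 27 from the transition to the hypertrophic zone. Surf1, needed for complex IV, rose there (log2 change 0.74, SE 0.16, adjusted p = 0.00159). Among the 6 carriers and pores, 1 fell, the ADP/ATP carrier Slc25a4, with a change of -0.40.

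Among 11 regulators of mitochondrial biogenesis tested, 2 (18.2%, against 6.4% of all probe sets) rose from the resting to the proliferative zone, Gabpa (log2 change 0.66, SE 0.21, adjusted p = 0.0333) and Yy1 (log2 change 0.42, SE 0.13, adjusted p = 0.0362), which code for subunit alpha of nuclear respiratory factor 2 and for YY1. The coactivator gene Ppargc1b fell into the transition zone (log2 change -1.48, SE 0.41, adjusted p = 0.0112) and rose again in the hypertrophic zone (log2 change 1.499, SE 0.41, adjusted p = 0.00984), and the mitochondrial factor Tfb1m went the other way (log2 change 0.79, SE 0.19, adjusted p = 0.00423, then -0.55 with adjusted p = 0.041). Genes induced at low oxygen, the class to which Ndufa4l2 and Cox4i2 are known to belong, had 8 falls (66.7%, against 11% of all probe sets) and 1 rise (8.33%, against 11.5%) of 12 from the transition to the hypertrophic zone. They were led by the carbonic anhydrase Car9 (log2 change -3.15, SE 0.36, adjusted p = 7.62e-07) and Bnip3 (log2 change -1.21, SE 0.21, adjusted p = 0.000201), and the gene that rose was Vegfa (log2 change 1.44, SE 0.32, adjusted p = 0.00163).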

How the data were processed

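Signal intensities deposited by the authors were MAS5 values, per the submitters' processing notes, with no version named; 50 to 100 ng of RNA went through 2 rounds of labelling, per the labels' protocols. The 2% trimmed mean of every array lay between 500.1 and 500.2, a scaling that leaves array medians free to differ. Here log2(signal + 16) was fitted with limma 3.58.1 in R 4.3.3, with zone and the animal's number as a block, on the 19213 of 31099 probe sets above the array median in at least 4 arrays, after 57 control probe sets were left out. Residual degrees of freedom numbered 15. P-values were adjusted by Benjamini-Hochberg over all probe sets tested, for each of 5 comparisons and the F test. The code was tested on simulated data.

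The numbers name the same animal in each zone, per the labels. Deviations from the zone means correlated at a median r of 0.176 in 46 pairs of arrays of 1 animal (-0.142 to 0.36) against -0.046 for other pairs. For 21 of 24 arrays, the mean correlation with arrays of other zones was highest for the animal of the same number. Within a zone, no pair of arrays differed by less than 0.617 (root mean square, log2 scale).

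Named in each comparison were up to 8 rises and 8 falls among called members with the same direction in all animals, the isoform pairs, the Sdh genes, Cyc1, Cycs and the member of highest mean signal in each complex. Other called members were named after their values were seen. The members and lists were chosen with earlier results of these data known. Alternatives covered the pseudocount, normalization, filter, block, array weights, zones fitted, probe sets and animals left out. Plots used Python 3.11.15 and matplotlib 3.10.9.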

Additional observations from a re-analysis of the deposited data

Results flagged for a closer look

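In 14 of 225 groups of arrays examined, 1 array stood apart from the rest of its zone by Dixon's criterion, where chance alone gives about 1 in 20. All values here are log2(signal + 16). In epiphyseal cartilage, the array of animal 1 was high for Ndufa1 (13.51, others 13.11 to 13.12), Ndufb2 (11.96, others 11.47 to 11.53), Uqcr10 (13.07, others 12.09 to 12.21), the median of complex III (12.76, others 11.96 to 12.04) and the median of all members (11.49, others 10.95 to 11). Of its zone, that array also had the highest sums of markers of osteoclasts and macrophages, skeletal muscle, erythroid cells, endothelium and osteoblasts. The same held for markers of hypertrophic chondrocytes and dividing cells, while its sum of chondrocyte markers was the lowest. The epiphyseal array of animal 2 was high for Atp5mk (13.74, others 12.75 to 12.91).

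The resting array of animal 1 was high for Uqcr10 (13.11, others 12.12 to 12.36), Cox6b1 (12.71, others 11.92 to 12) and the median of complex III (12.52, others 11.88 to 12). Sdha was high in the resting array of animal 3 (11.54, others 11.01 to 11.09). Ndufaf5 was low in the resting array of animal 4 (9.39, others 9.93 to 10.11) and in the proliferative array of animal 1 (9.7, others 10.14 to 10.31). In the hypertrophic zone, Atp5if1 was high in animal 2 (10.91, others 10.57 to 10.67) and Cox7a1 low in animal 1 (6.61, others 7.28 to 7.52).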

How the results depend on the processing

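Counts of called members moved with the settings. Of 39 pairs of a named gene and a comparison, tried under 19 alternatives, 640 of 735 values stayed on their side of the threshold, 95 lost the call and 0 changed direction. These pairs had been picked as called and moving the same way in every animal. That choice left little room for a change of direction, so its absence says nothing about how stable the directions are. Without the replicate block, calls were 4 of the 7 from the resting to the proliferative zone, 5 of the 11 from there to the transition zone, 8 of the 19 from there to the hypertrophic zone and 12 of the 21 between the hypertrophic and proliferative zones. Fits of the compared zones alone gave 18, 17 and 9 in the first 3 of these. Quantile normalization gave 1 call between the resting and epiphyseal zones, where the fit gave 0, and 11 between the hypertrophic and transition zones, where arrays scaled to one median gave 35. From the resting to the proliferative zone, a filter at the 75th percentile gave 11 calls and array weights 19. Scaling to one median raised the members' median change to 0.34 there and to 0.36 into the transition zone. Leaving out each animal in turn gave 30 to 46 over the zones, 4 to 7, 6 to 10, 4 to 26 and 12 to 23 in these comparisons. Alternatives added after seeing the data left out the hypertrophic array of animal 4 (12 calls from the resting to the proliferative zone) or the transition array of animal 5 (11 there, 7 into and 7 out of the transition zone). The cause of these shifts was not tested. Dim members near the pseudocount, such as Cox6b2 and Cox8b, limit what fold can be read.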
